A study of Mus musculus with 9 samples.

Results

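The astrocyte markers described here are 32 genes taken by name from the deposited count table, which holds 43629 genes, and compared between wild-type (WT) and Neat1-/- mice. All 32 had an Ensembl ID in the table, and all 32 were among the 19753 genes with enough counts to be tested. RNA-seq was performed on the frontal cortex of 9 female C57BL/6 mice. The 5 WT mice were 2, 2, 3, 4 and 4 months old (replicates 1 to 5), and the 4 Neat1-/- mice were 3, 3, 4 and 2 months old (replicates 1, 3, 4 and 5). Neat1 is a long noncoding RNA that scaffolds nuclear bodies called paraspeckles. In the knockout allele its transcription is cut short by a lacZ reporter with poly(A) signals near the 5′ end of the gene, in all cell types and not in astrocytes alone. Libraries were made from total RNA after removal of ribosomal RNA.

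Astrocytes are the glial cells that surround synapses and blood vessels in the cortex. They clear glutamate and potassium released by neurons, pass glutamine back to them, move water at their end feet on vessels, and are coupled to each other by gap junctions. After injury or inflammation they become reactive, with more of the intermediate filament protein Gfap. Since the tissue was sequenced in bulk, fewer astrocytes and less RNA per astrocyte cannot be told apart. Some of the markers, such as Glul, Mfge8 and Acsl6, are also made by other cells of the cortex.

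The counts summed to 51276067 to 64648856 per library. Neat1 itself was at 60.8 to 120 CPM (counts per 1e+06, scaled by the trimmed mean of M-values, TMM) in WT mice and at 7.11 to 9.72 CPM in Neat1-/- mice (log2 fold change -3.33; edgeR's quasi-likelihood test, adjusted p = 1.27e-06). The first principal component, with 33.8% of the variance, set WT replicates 3 and 4 (scores of 47.8 and 42.1) apart from the other 7 libraries (at most -4.80). The summed level of 11 choroid plexus and ependymal genes was 125.8 CPM in WT replicate 3 and 22.7 to 34.96 CPM in the other libraries. That of 10 meningeal fibroblast genes was 52.0 CPM in WT replicate 4 and 122 to 288 CPM elsewhere. Results that rest on WT replicates 3 and 4 are therefore also given without them. Shares of all genes given beside a count are from the fit with all mice included.

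The astrocyte markers differed little between the genotypes. Of the 32, 0 passed an adjusted p of 0.05 (Benjamini-Hochberg, over all 19753 genes) in edgeR, DESeq2 or limma, against 14 of all genes tested in edgeR (0.0709%). At a nominal (unadjusted) p under 0.05 in edgeR, 5 markers were higher in Neat1-/- mice and 0 were lower, where 4.27% of all genes were higher and 4.03% lower. The 5 were Fgfr3, Gpc5, Agt, Mfge8 and Slc25a18, and the lowest adjusted p of any marker was 0.534 (Fgfr3). The log2 fold changes, Neat1-/- over WT, ran from -0.07 (Slco1c1) to 0.32 (Agt) with a median of 0.037, beside a median of -0.00023 over all genes. Each edgeR p-value sets the difference by genotype, with age in the fit, against the variation left between mice. That variation was estimated partly from other genes.

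The precision was enough to bound most markers closely. The standard error of the log2 fold change ran from 0.028 (Slc1a2) to 0.12 (Agt), with a median of 0.050. For 30 of the 32 markers the whole 95% interval of the fold change lay within 1.25-fold in either direction. The exceptions were Agt and Gfap, whose intervals reached log2 fold changes of 0.58 and 0.47. All 32 intervals lay within 1.5-fold.

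**Figure D1:**
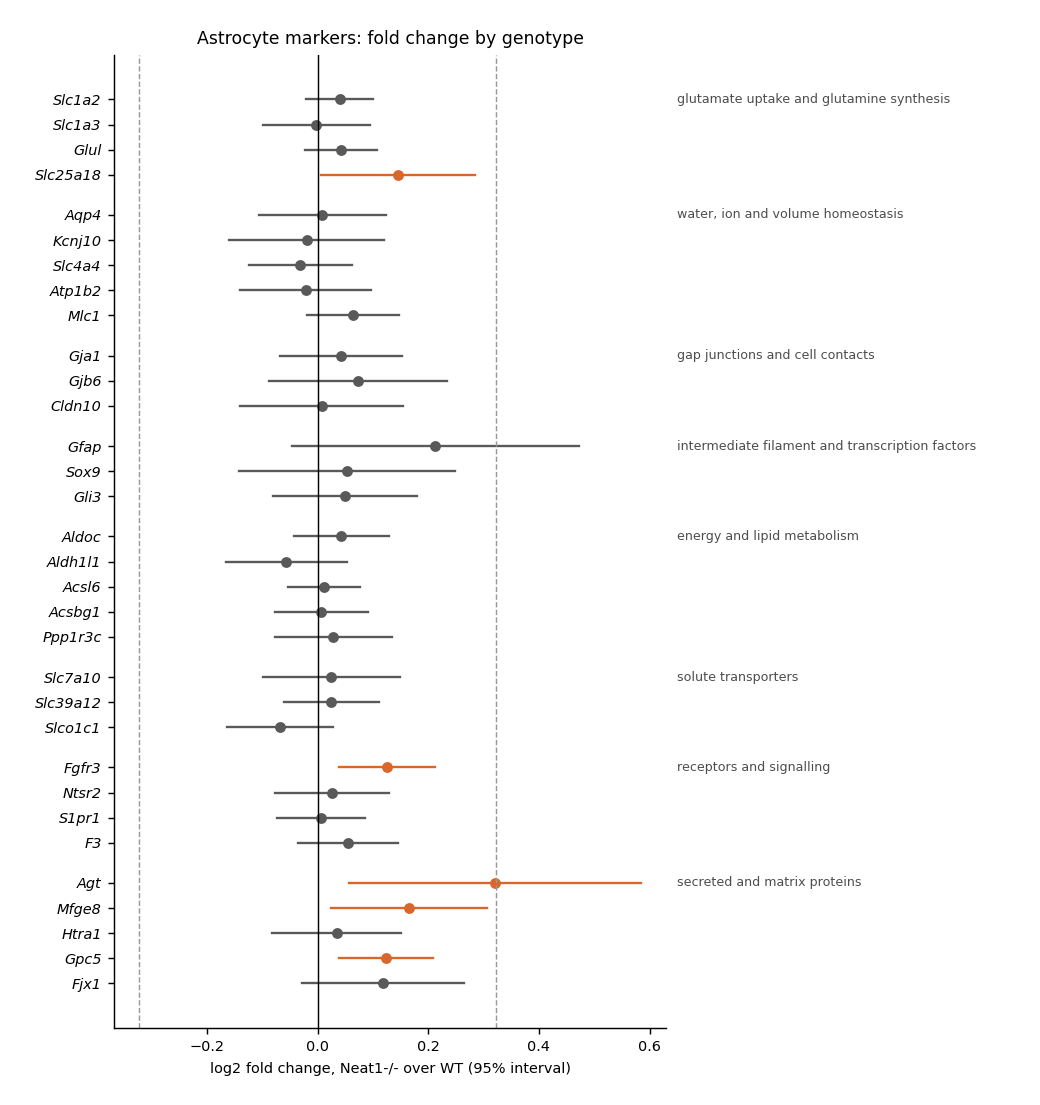
Log2 fold change of each of the 32 astrocyte markers, Neat1-/- over WT (points), with its 95% interval (lines), grouped by role and fitted with edgeR with age as a covariate; orange marks a nominal p under 0.05, and dashed lines stand at 1.25-fold. Only Agt and Gfap have an interval that crosses a dashed line.

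Of the 32 log2 fold changes 26 were above 0 and 6 below, where 9853 of 19753 genes were above 0. Without 7 markers that other cell types also express, the median was 0.035. The split was 20 above and 12 below without WT replicate 4, and 17 above and 15 below without WT replicates 3 and 4, with medians of 0.0045 and 0.0026. With scaling by library size alone it was 22 above and 10 below, because Acsbg1, Aqp4, Cldn10 and S1pr1 moved just below 0. In the deposited log2 table, which the authors had adjusted for covariates, the difference of genotype means was above 0 for 16 of the 32 markers, with a median of 0.0039 and a range from -0.11 (Aldh1l1) to 0.31 (Agt).

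The genes grouped as secreted and matrix proteins held 3 of the 5 markers with a nominal p under 0.05, out of 5 genes with that role. Over all genes 4.27% were higher at this threshold. Whether this role differs from the others was not tested. Below, values are given in order of replicate number, 1 to 5 for WT and 1, 3, 4 and 5 for Neat1-/- mice. Agt (ENSMUSG00000031980; GRCm38 chromosome 8, 124556534 to 124569706) encodes angiotensinogen, which astrocytes make in the brain. Its levels were 2.99, 3.71, 2.72, 3.81 and 3.30 CPM in WT and 4.16, 4.33, 3.98 and 4.05 CPM in Neat1-/- mice. Each Neat1-/- mouse was above each WT mouse, and Agt was the only marker whose genotypes did not overlap. Such a separation was found in 1.66% of all genes tested. The log2 fold change was 0.32 (SE 0.12, unadjusted p = 0.0212 and adjusted p = 0.57 from edgeR). Agt was the marker with the lowest counts, 142 to 267 per library. In edgeR its nominal p exceeded 0.05 without WT replicate 1 or without Neat1-/- replicate 3.

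Gpc5 (chromosome 14, 115092215 to 116525179) encodes a glypican, a heparan sulfate proteoglycan of the cell surface. It was at 40.0, 41.5, 39.05, 38.3 and 38.9 CPM in WT and at 43.6, 45.6, 40.3 and 42.8 CPM in Neat1-/- mice. Of the Neat1-/- mice, only replicate 4 lay within the WT range. This gave a log2 fold change of 0.12 (SE 0.039, unadjusted p = 0.0079 and adjusted p = 0.534 from edgeR). Mfge8 (chromosome 7, 79133768 to 79149060) encodes a secreted protein that binds phosphatidylserine on cells to be engulfed. Its levels were 109, 139, 128, 118 and 140 CPM in WT and 138, 147, 142 and 142 CPM in Neat1-/- mice. The genotypes overlapped, with WT replicates 1 and 4 the lowest. For Mfge8 the log2 fold change was 0.17 (SE 0.065, unadjusted p = 0.0245 and adjusted p = 0.58 from edgeR), and without WT replicates 3 and 4 it was 0.12 (unadjusted p = 0.0989 from edgeR). The nominal p of Mfge8 also exceeded 0.05 without WT replicate 1 (log2 fold change 0.10) or 4 or without Neat1-/- replicate 3 or 5. The other genes of this group were Fjx1, an inhibitor of dendrite growth at a log2 fold change of 0.12 (SE 0.068), and Htra1, a serine protease with one of 0.03 (SE 0.054). Neither had a nominal p under 0.05.

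Among receptors and signalling genes, Fgfr3 had the lowest p of all markers. Fgfr3 (ENSMUSG00000054252; chromosome 5, 33721674 to 33737068) encodes a fibroblast growth factor receptor. Its levels were 112, 123, 118, 114 and 121 CPM in WT and 130, 132, 119 and 133 CPM in Neat1-/- mice. Of the Neat1-/- mice, 3 lay above the whole WT range and replicate 4 lay within it. The log2 fold change was 0.13 (SE 0.040, unadjusted p = 0.0079 from edgeR), a level 9.08% higher in Neat1-/- mice. Fgfr3 and Gpc5 were the markers with a nominal p under 0.05 in all 20 alternative analyses, with log2 fold changes from 0.088 to 0.15 and from 0.093 to 0.14. Both had the lowest p of the markers in the main fit, and the alternatives refit the same mice. Their staying under 0.05 therefore adds no independent support. Ntsr2, a neurotensin receptor, S1pr1, a receptor for sphingosine 1-phosphate, and F3, the tissue factor that starts coagulation, had log2 fold changes of 0.03, 0.0062 and 0.05, and each had a nominal p above 0.05.

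Of the genes of glutamate uptake and glutamine synthesis, Slc1a2, Slc1a3 and Glul had intervals that included 0. Slc1a2 encodes GLT-1, the main glutamate transporter of the cortex. It was at 3436, 3382, 3264, 3044 and 3135 CPM in WT and at 3312, 3304, 3408 and 3338 CPM in Neat1-/- mice. All Neat1-/- values lay within the WT range. The log2 fold change was 0.04 with a 95% interval from -0.02 to 0.10. Slc1a3, which encodes the transporter GLAST, was at 587, 563, 504, 498 and 550 CPM in WT and at 552, 548, 539 and 517 CPM in Neat1-/- mice. These too lay within the WT range, and the log2 fold change was -0.0022 with an interval from -0.099 to 0.094. Without WT replicates 3 and 4, the lowest for this gene, Slc1a3 had a log2 fold change of -0.07 (SE 0.032, unadjusted p = 0.0413 and adjusted p = 0.671 from edgeR).

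Glul encodes glutamine synthetase, which turns the captured glutamate into glutamine. Its levels were 1574, 1677, 1559, 1520 and 1651 CPM in WT and 1657, 1630, 1636 and 1650 CPM in Neat1-/- mice. The Neat1-/- mice lay close together within the WT range (log2 fold change 0.04, 95% interval -0.02 to 0.11). Slc25a18 (chromosome 6, 120773578 to 120794336) encodes a carrier of glutamate into mitochondria. It was at 35.2, 46.3, 41.2, 45.1 and 42.3 CPM in WT and at 46.6, 47.6, 45.4 and 46.1 CPM in Neat1-/- mice. The genotypes overlapped, and WT replicate 1 was the lowest. Slc25a18 had a log2 fold change of 0.14 (SE 0.064, unadjusted p = 0.0429 and adjusted p = 0.594 from edgeR), and the nominal p was under 0.05 in 11 of the 20 alternative analyses. It exceeded 0.05 without WT replicate 1, 3 or 5 and without Neat1-/- replicate 1, 3 or 5. The nominal p also exceeded 0.05 with age as a factor, with a filter of at least 1 CPM in 4 libraries, and with scaling by library size alone. Without WT replicate 1 the log2 fold change of Slc25a18 was 0.073. An exon of Atp6v1e1, at 353 CPM on the other strand, shares 32 bases with exons of Slc25a18, and whether the counting used the strand is not given in the sources used here.

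The genes of water and ion balance had log2 fold changes on both sides of 0. Aqp4 encodes aquaporin 4, the water channel of the end feet. Its levels were 116, 125, 122, 115 and 124 CPM in WT and 127, 128, 124 and 105 CPM in Neat1-/- mice. Neat1-/- replicate 5 was the lowest of all 9 mice and replicates 1 and 3 were the highest. Its log2 fold change was 0.0088 (95% interval -0.11 to 0.12). Kcnj10 encodes Kir4.1, the potassium channel through which astrocytes take up potassium. It was at 53.9, 58.9, 68.8, 65.1 and 57.8 CPM in WT and at 65.3, 55.1, 63.99 and 55.9 CPM in Neat1-/- mice, all within the WT range (log2 fold change -0.02, 95% interval -0.16 to 0.12). The others were Mlc1, a membrane protein of end feet needed for volume regulation (0.06), Slc4a4, a sodium bicarbonate cotransporter (-0.03), and Atp1b2, a subunit of the sodium pump (-0.02), none at a nominal p under 0.05.

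None of the gap junction and contact genes had a nominal p under 0.05 in edgeR with all mice included. Gja1 encodes connexin 43. It was at 129, 136, 118, 113 and 128 CPM in WT and at 133, 125.5, 133 and 122 CPM in Neat1-/- mice. These values lay within the WT range (log2 fold change 0.04, 95% interval -0.07 to 0.15). Gjb6 encodes connexin 30, found mainly in mature astrocytes. Its levels were 54.6, 65.4, 52.0, 44.7 and 59.5 CPM in WT and 59.0, 59.7, 54.2 and 59.4 CPM in Neat1-/- mice. WT replicate 4 was the lowest and WT replicate 2 the highest of all mice (log2 fold change 0.07, 95% interval -0.09 to 0.23). The nominal p of Gjb6 was under 0.05 in 3 of the 20 alternative analyses, with either replicate block and without WT replicate 5. Without WT replicates 3 and 4 its log2 fold change was -0.036. Cldn10, a claudin, had a log2 fold change of 0.0073 (SE 0.068).

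Gfap was the marker with the widest spread between WT mice. It was at 67.6, 66.4, 83.5, 46.3 and 70.6 CPM in WT and at 77.5, 79.8, 81.9 and 70.4 CPM in Neat1-/- mice. The genotypes overlapped, and the WT mice held both the lowest value, in replicate 4, and the highest, in replicate 3. The log2 fold change was 0.21 (SE 0.12, unadjusted p = 0.098 and adjusted p = 0.648 from edgeR). Without WT replicates 3 and 4 it was 0.16 (SE 0.038, unadjusted p = 0.00128 and adjusted p = 0.328 from edgeR), with each Neat1-/- mouse other than replicate 5 above the 3 remaining WT mice. Leaving out the highest and the lowest WT value narrowed the WT spread, and the SE fell while the fold change became smaller. The smaller p is therefore no further support for a difference in Gfap. With 1 library left out the log2 fold change of Gfap ran from 0.075, without WT replicate 4, to 0.30, without WT replicate 3. Sox9, a transcription factor of the astrocyte lineage, was at 8.90, 7.78, 9.13, 7.98 and 8.31 CPM in WT and at 8.81, 8.53, 10.3 and 7.45 CPM in Neat1-/- mice. Neat1-/- mice were both the highest and the lowest (log2 fold change 0.05, 95% interval -0.14 to 0.25). Gli3, a transcription factor of Hedgehog signalling, had a log2 fold change of 0.05 (SE 0.060).

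Of the metabolic genes, Aldoc and Aldh1l1 are used to recognize astrocytes throughout the cortex. Aldoc, the brain form of the glycolytic enzyme aldolase, was at 815, 796, 721, 659 and 763 CPM in WT and at 764, 798, 713 and 818 CPM in Neat1-/- mice. The genotypes overlapped, and WT replicate 4 was the lowest of all 9 mice (log2 fold change 0.04, 95% interval -0.04 to 0.13). Aldh1l1, an enzyme of folate metabolism, was at 79.9, 76.7, 69.6, 65.0 and 71.5 CPM in WT and at 71.3, 76.4, 60.8 and 70.3 CPM in Neat1-/- mice. Neat1-/- replicate 4 was the lowest and WT replicate 1 the highest (log2 fold change -0.06, 95% interval -0.17 to 0.05). The acyl-CoA synthetases Acsl6 and Acsbg1 had log2 fold changes of 0.01 and 0.0071, and Ppp1r3c, which targets a phosphatase to glycogen, one of 0.03. Ppp1r3c is the only marker on chromosome 19, which also holds Neat1. The solute transporters were Slc7a10, a carrier of small neutral amino acids (0.02), Slc39a12, a zinc transporter (0.02), and Slco1c1, a carrier of thyroid hormone (-0.07), again with no nominal p under 0.05. Exons of Lrp3, at 71.7 CPM on the other strand, cover 17.9% of the exons of Slc7a10.

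**Figure D2:**
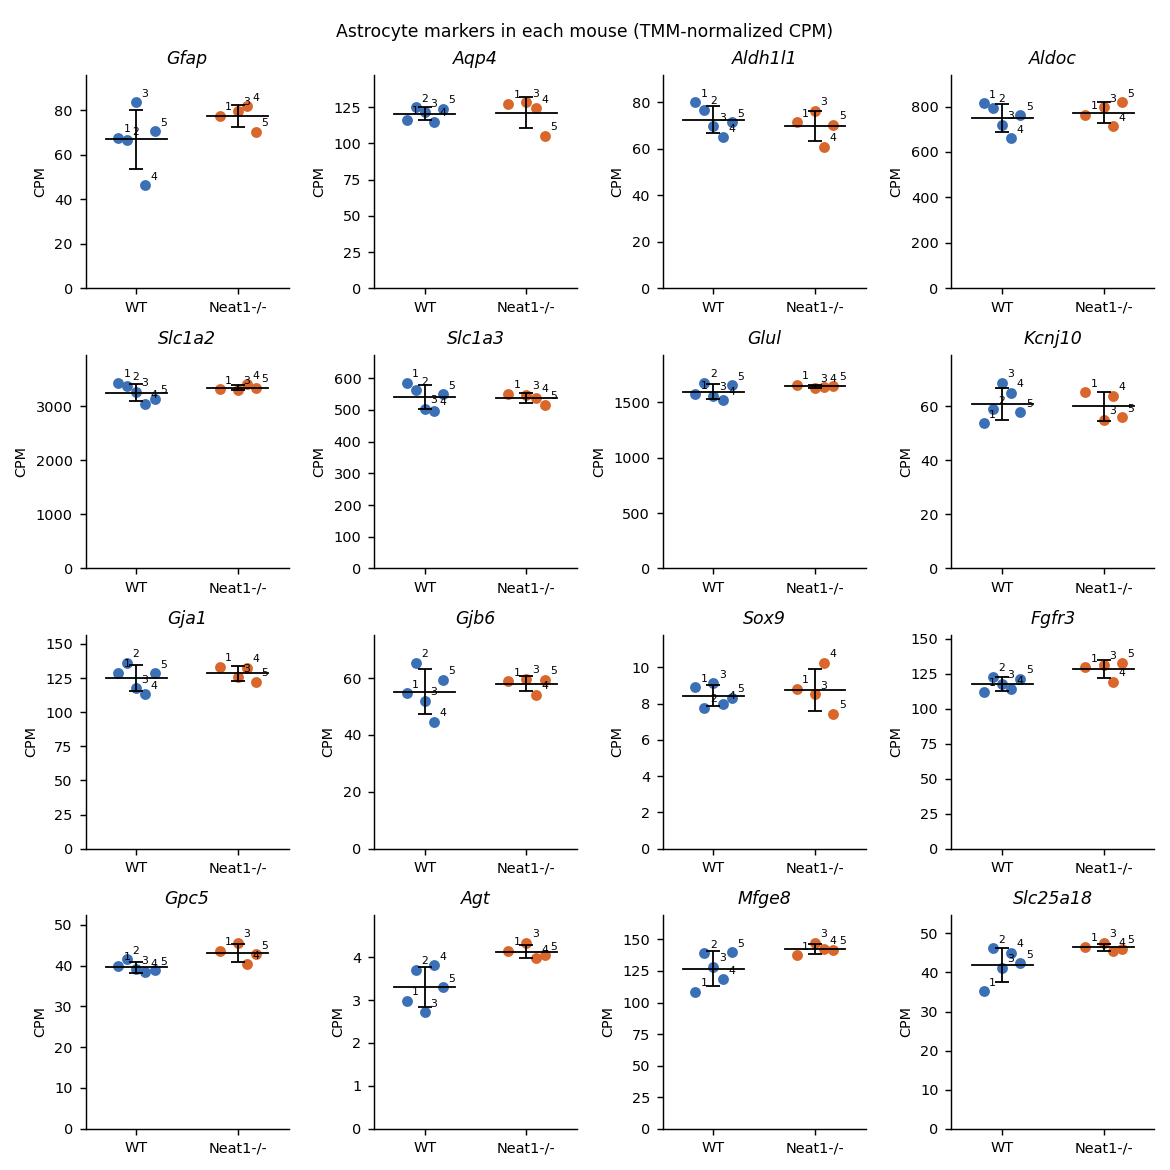
TMM-normalized CPM of 16 astrocyte markers in each mouse, the 11 in most common use and the 5 with a nominal p under 0.05 in edgeR; points are mice labelled by replicate number, lines are means and bars the SD (5 WT and 4 Neat1-/- mice). The genotypes overlap in every panel but that of Agt, where the WT mice sit between 2.72 and 3.81 CPM and the Neat1-/- mice between 3.98 and 4.33.

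Per kilobase of exon, the order of the markers was led by the glutamate and glycolysis genes. Glul was at 480 CPM per kb in WT and 495 in Neat1-/- mice, Slc1a2 at 248 and 254, Aldoc at 230 and 237, and Slc1a3 at 63.3 and 63.1. At the other end were Sox9 (2.04 and 2.12 CPM per kb), Agt (1.75 and 2.18) and Gli3 (1.08 and 1.11). Gfap ranked 21 of the 32, at 15.9 CPM per kb in WT and 18.3 in Neat1-/- mice. Slc1a2 and Aldoc stood next to each other in this order with SDs of 5.05% and 8.31% of the mean in WT mice, so that their means ± SD overlapped, whereas those of Glul did not overlap either. The SD between WT mice ran from 1.01% of the mean (Acsl6) up to that of Gfap, 13.4 CPM on a mean of 66.9 CPM, with a median of 6.73% over the markers, and that between Neat1-/- mice from 0.779% (Glul) to 13.2% (Sox9), with a median of 4.44%.

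Marker levels were lowest in WT replicate 4. The markers took 0.793% of all counts in WT replicate 4, and 0.842% to 0.868% in the other 8 libraries. WT replicate 4 had the lowest level of 15 of the 32 markers and the highest of 0, and its median deviation from the mean of the 9 mice was -0.100 on the log2 scale. WT replicate 3 followed at -0.052. In the Neat1-/- mice the median deviations were 0.046, 0.061, -0.014 and 0.011. The summed level of the markers spanned 7854 to 8769 CPM in WT and 8558 to 8654 CPM in Neat1-/- mice, so the whole range of the Neat1-/- mice lay inside that of the WT mice.

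**Figure D3:**
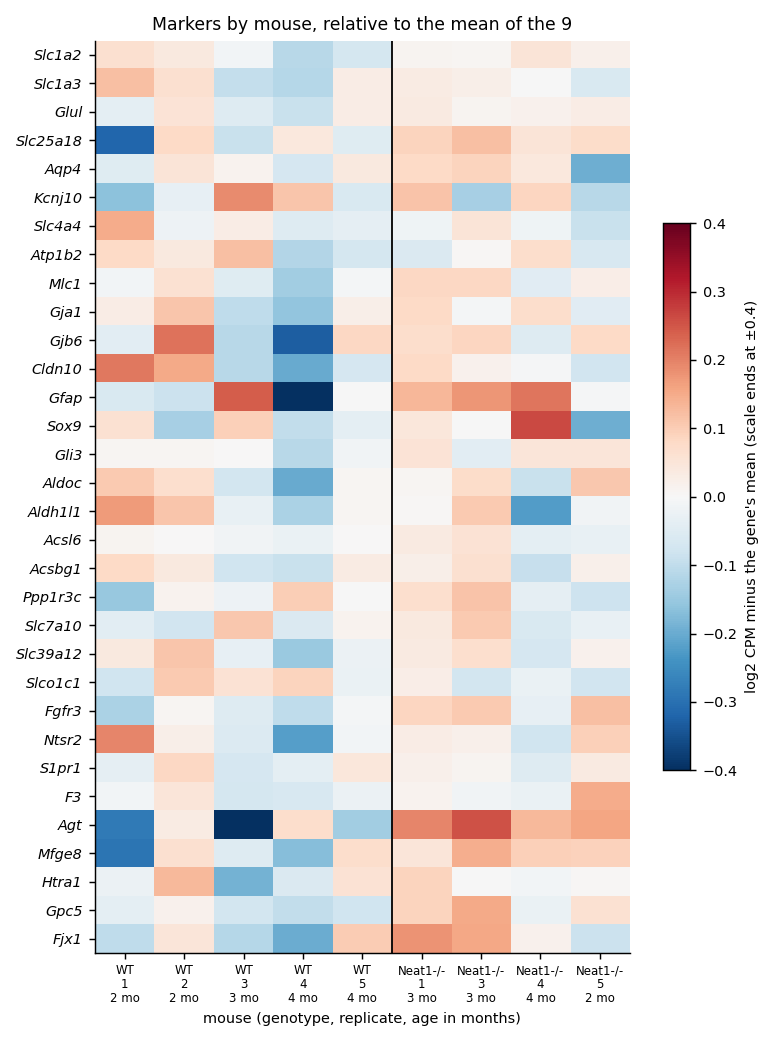
Level of each astrocyte marker in each mouse as log2 CPM less the mean of that gene over the 9 mice (blue below, red above; the scale ends at 0.4 either way), with columns by genotype, replicate and age, and markers in the order of their roles. WT replicate 4 is blue for most markers (median -0.100), while 5 markers, Slc25a18, Kcnj10, Ppp1r3c, Slco1c1 and Agt, are above their mean there.

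Age in months was a covariate of the fit, and its slope was read for the same 32 markers. Lower levels in older mice were found for 6 markers at a nominal p under 0.05 in edgeR (3.12% of all genes) and higher levels for 0 (2.86% of all genes). None passed the adjusted threshold for age (lowest adjusted p 0.82 in edgeR, and 0 called in DESeq2 and limma), nor did any of the 19753 genes in edgeR. The median slope of the markers was -0.025 on the log2 scale per month, and 22 of 32 slopes were below 0, beside 9707 of 19753 for all genes.

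The level of Aldoc was 810 ± 12.4 CPM at 2 months, 761 ± 38.6 at 3 months and 712 ± 51.8 at 4 months (SD, n = 3 mice at each age, both genotypes together). Its slope was -0.09 per month on the log2 scale (SE 0.024, unadjusted p = 0.0021 from edgeR). Each mouse of 4 months lay below each mouse of 2 months. Ntsr2 was at 62.3 ± 3.77, 57.8 ± 1.83 and 54.0 ± 3.96 CPM at 2, 3 and 4 months (slope -0.10, unadjusted p = 0.0035 from edgeR). Aldh1l1 was at 75.6 ± 4.89, 72.4 ± 3.53 and 65.8 ± 5.37 CPM (slope -0.10, unadjusted p = 0.0063 from edgeR). For Ntsr2, too, each mouse of 4 months was below each of 2 months, while for Aldh1l1 the ages overlapped. How many of all genes separate by age in this way was not counted. These markers were picked by their p for age, so the separations add no further support.

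The other markers lower in older mice were Slc39a12 (slope -0.07), Slc1a2 (-0.04) and Cldn10 (-0.10). WT replicate 4, the library with the lowest marker levels, was one of the mice of 4 months. Without it, or without WT replicates 3 and 4, Aldoc, Ntsr2 and Aldh1l1 were the markers still lower with age at a nominal p under 0.05. Gfap had a slope of -0.03 with all mice (unadjusted p = 0.727 from edgeR) and of 0.07 without WT replicates 3 and 4 (unadjusted p = 0.00848 from edgeR). The latter fit lacks the highest and the lowest WT value of Gfap, so its p rests on a narrowed spread. The highest slope was that of Kcnj10, 0.07 per month (unadjusted p = 0.0876 from edgeR).

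**Figure D4:**
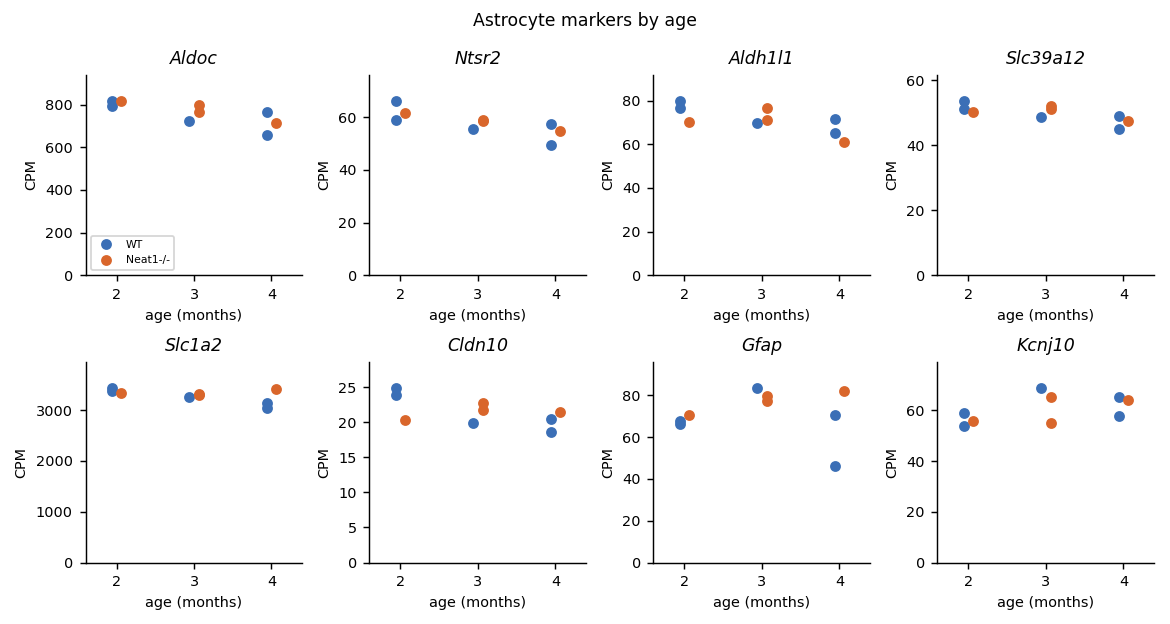
TMM-normalized CPM by age in months for the 6 astrocyte markers with a nominal p under 0.05 for age from edgeR, and for Gfap and Kcnj10; each point is a mouse, in blue for WT and orange for Neat1-/-. Aldoc is at 796 to 818 CPM at 2 months and 659 to 763 CPM at 4 months, and Gfap at 4 months spreads from 46.3 to 81.9 CPM.

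A separate list of 42 genes that are enriched in astrocytes but are not among the markers was measured in the same fit. Of these, 7 were higher (4.27% of all genes) and 0 lower (4.03%) in Neat1-/- mice at a nominal p under 0.05 in edgeR, 0 passed the adjusted threshold, and the median log2 fold change was 0.039. Itih3, a heavy chain that binds hyaluronan in the matrix, had the lowest p. It was at 19.3, 24.8, 25.03, 18.9 and 22.7 CPM in WT and at 28.6, 27.4, 25.1 and 28.8 CPM in Neat1-/- mice. Each Neat1-/- mouse was above each WT mouse (log2 fold change 0.31, SE 0.082, adjusted p = 0.403 from edgeR). Such a separation was found in 1 of the 42 genes and in 1.66% of all genes tested, so it is near the background. Apoe, the main lipid carrier of the brain, was at 687 to 865 CPM in WT and 831 to 897 CPM in Neat1-/- mice (log2 fold change 0.15, SE 0.050, adjusted p = 0.543 from edgeR). Without WT replicates 3 and 4 the same list had 1 gene higher and 3 lower, with a median of 0.015. With age, 13 of the 42 were lower (3.12% of all genes) and 2 higher (2.86%) at a nominal p under 0.05 in edgeR, led by Etnppl, an enzyme that breaks down phosphoethanolamine (slope -0.25 per month).

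With all mice included, the genes of reactive astrocytes had few calls at this threshold, near the background in each direction. Of 36 listed, 31 were tested, and 0 were higher (4.27% of all genes) and 2 lower (4.03%) in Neat1-/- mice at a nominal p under 0.05 in edgeR, with 0 past the adjusted threshold and a median log2 fold change of -0.017. The 10 tested pan-reactive genes had 0 in either direction and a median of -0.014. Among them, Vim, an intermediate filament gene shared with vessels, had levels of 29.5 ± 5.32 CPM over the 5 WT mice and 29.3 ± 3.02 CPM over the 4 Neat1-/- mice (SD), and Cp, the copper carrier ceruloplasmin, had a log2 fold change of 0.05 (SE 0.12). The 12 genes of the A1 type, seen after inflammation, also had 0 in either direction and a median of -0.028. The most abundant were H2-D1, a class I antigen gene (-0.02, SE 0.046), and Fkbp5, a glucocorticoid target (0.15, SE 0.11). The A2 type, seen after ischemia, held both genes that were lower, Ptgs2 (log2 fold change -0.26, SE 0.088) and S100a10 (-0.11, SE 0.049), among 9 tested. Lcn2 and Cxcl10, which rise in reactive astrocytes, had too few counts to be tested. Of the reactive genes, 5 were lower and 0 higher without WT replicates 3 and 4. The share over all genes in that fit was not counted, so whether the 5 lie near its background is not known.

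Of 10 tested factors by which astrocytes build or engulf synapses, Mertk, an engulfment receptor, was higher (log2 fold change 0.10, SE 0.045) and Gpc6, a glypican that promotes synapses, was lower (-0.23, SE 0.087) at a nominal p under 0.05 in edgeR. Over all genes 4.27% were higher and 4.03% lower, so that 1 of 10 in each direction is near the background. The median of these factors was 0.031, and 0 passed the adjusted threshold. When WT replicates 3 and 4 were left out, 0 were higher, 0 lower and the median was -0.023.

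Markers of other cell types in the same libraries moved as follows, with 0 past the adjusted threshold in each list. All 12 mature oligodendrocyte markers had a log2 fold change below 0 (median -0.27), where 9900 of 19753 genes were below 0. Of the 12 markers, 6 were lower at a nominal p under 0.05 in edgeR (4.03% of all genes), led by Opalin (-0.40) and Mal (-0.38). Their summed level was 2384 to 3751 CPM in WT and 2028 to 3093 CPM in Neat1-/- mice. Of 9 progenitor markers 4 were lower (4.03% of all genes), led by Olig1 (-0.26) and Olig2 (-0.40). Their median was -0.17, with summed levels of 287 to 319 and 249 to 279 CPM. All 9 log2 fold changes were below 0, but those of Pdgfra (-0.0071, SE 0.055) and C1ql1 (-0.023, SE 0.12) were near it. Of 12 microglia markers 5 were higher (4.27% of all genes), among them C1qa (0.17), and 0 were lower (4.03%). Their median was 0.052, with summed levels of 362 to 414 and 388 to 418 CPM. In the fit without WT replicates 3 and 4, 3 oligodendrocyte markers were lower (median still -0.27) and 1 microglia marker was higher (median 0.0085), while 4 progenitor markers were lower.

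The 12 neuronal markers had a median of 0.019 with 1 higher, Syp (0.08), and 1 lower, Nefl (-0.08), and the 12 endothelial and mural markers a median of 0.0075 with 1 higher, Slco1a4 (0.12). Over all genes 4.27% were higher and 4.03% lower, so these single calls are near the background. The 10 tested choroid plexus and ependymal markers (median -0.21) and the 10 meningeal ones (median 0.049) had 0 in either direction. Without WT replicates 3 and 4 the meningeal list had 4 lower and a median of -0.17, the choroid plexus and ependymal list 0 in either direction and a median of 0.066, the endothelial and mural list 0 higher, 1 lower and a median of -0.073, and the neuronal list 0 higher, 1 lower and a median of 0.00048. For that fit the share over all genes was not counted. With all 9 mice, the most abundant choroid plexus and ependymal genes were Ttr (-1.14, SE 0.54) and Kl (-0.08, SE 0.25), and the most abundant meningeal ones Col1a2 (-0.29, SE 0.29) and Col1a1 (-0.76, SE 0.51). No listed marker of any of these types was at 0 in every library. The part of these cell types in the differences of the astrocyte markers was not tested.

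**Figure D5:**
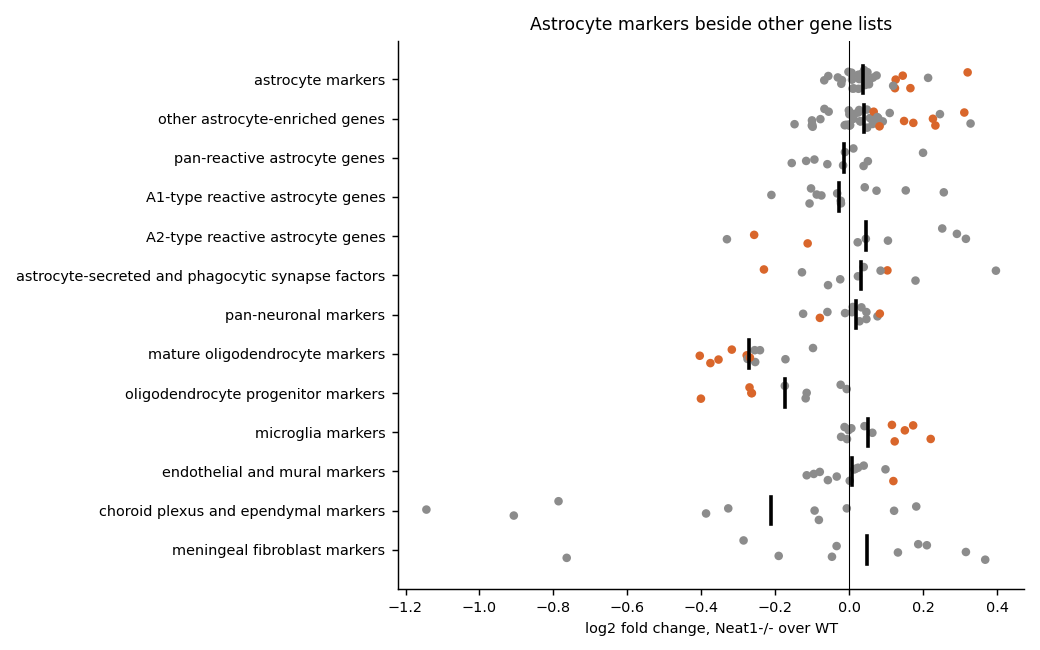
Log2 fold change, Neat1-/- over WT, of the tested genes of each list (points; orange for a nominal p under 0.05 in edgeR) with the median of the list (black bar); vertical scatter within a list only separates points. The bar of the astrocyte markers stands at 0.037 and that of the mature oligodendrocyte markers at -0.27.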

How the data were processed

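Frontal cortex RNA of 9 mice, cleared of ribosomal RNA, was sequenced. Deposited by the authors were raw read counts for each Ensembl gene and normalized log2 values of 13456 genes, with covariates taken out. STAR 2.5.0 and HTSeq 0.8.0 are the tools in the submitters' processing notes, while the supplementary methods name TopHat and another HTSeq release, both on mm10; whether counting used the strand is not given in the sources used here. Counts were used as deposited, and 0 entries named no gene. Depth was 51276067 to 64648856 counts per library, and no library pair agreed within sampling noise (chi-square per degree of freedom at least 6.02).

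Genes were named from GENCODE vM21 (GRCm38) by Ensembl ID (42548 of 43629 IDs had a name). Lhfpl3 had no ID in the counts under its listed name. Genes kept by filterByExpr (19753) were tested with edgeR 4.0.16 (R 4.3.3; TMM, glmQLFit, glmQLFTest) with age in months and genotype, adjusted by Benjamini-Hochberg over all of them. Intervals are 95%. Levels are TMM-normalized CPM. For mean CPM, an exact two-sided permutation test was run per marker (smallest possible p 0.00794; lowest found 0.0238, Agt, without adjustment). The edgeR test was checked on simulated counts whose fold changes were larger than those of the markers. The check therefore does not cover differences as small as theirs.

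The markers, gene lists and tests were chosen with earlier results of these data known. Values in every mouse are given for Gfap, Aqp4, Aldh1l1, Slc1a2, Slc1a3, Glul, Aldoc, Gja1, Gjb6, Sox9, Kcnj10, and each marker with a nominal p under 0.05 or with genotypes that do not overlap. Of each other list, up to 2 genes with the lowest nominal p under 0.05 are named, or else those with the highest level. Lcn2, Cxcl10 and Etnppl were named after their values were seen. One gene that the rule would name is not reported here. Alternatives were DESeq2 1.42.0, limma 3.58.1 voomWithQualityWeights, other size factors, filters and age terms, a block for the replicate number, leaving out each library in turn, and WT replicates 3 and 4 left out.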

Additional observations from a re-analysis of the deposited data

Results flagged for a closer look

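In each genotype, the mouse farthest from the others was compared with Dixon's critical value for each of the 32 markers, which made 64 groups of values. In 4 groups a mouse lay apart, where chance gives about 1 in 20. Gjb6 was at 54.2 CPM in Neat1-/- replicate 4, below the 59.0 to 59.7 CPM of the other Neat1-/- mice. Gli3 was at 9.71 CPM in WT replicate 4, below the other WT mice at 10.4 to 10.5 CPM, and at 10.2 CPM in Neat1-/- replicate 3, below the other Neat1-/- mice at 10.8 to 10.9 CPM. Htra1 was at 136 CPM in Neat1-/- replicate 1, above the other Neat1-/- mice at 127 to 129 CPM. None of these genes had a nominal p under 0.05 for genotype in edgeR.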

How the results depend on the processing

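No marker passed an adjusted p of 0.05 for genotype in any of the 20 alternatives or for age in any of the 17 that fit its slope; the lowest adjusted p of any marker ran from 0.112 to 0.893 and from 0.112 to 0.9998. The 5 markers higher in Neat1-/- mice at a nominal p under 0.05 became 8 with a replicate block and age, and 2 to 8 with a library left out (2 without WT replicate 1 or Neat1-/- replicate 3, 8 without WT replicate 5). Markers lower numbered 1 without WT replicates 3 and 4 and 0 to 1 with a library left out. The deviations of same-numbered mice had correlations of 0.044, -0.045, 0.137 and -0.077, and of them only WT replicate 4 correlated best with its own number. What the numbers mark is not given in the sources used here. These correlations therefore cannot settle whether the numbers pair the mice, and the main fit did not treat them as pairs. With the replicate block, 8 markers were higher, or 7 with no age term. No other count of calls in the markers for genotype moved by more than 1.5 times.

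Of the other astrocyte-enriched genes, 7 higher became 1 without WT replicates 3 and 4, 4 with no age term, 11 with no filter or with either block, and 3 to 13 with a library left out (3 without Neat1-/- replicate 3, 13 without WT replicate 5); 0 lower became 3, 1 with limma, 1 with no filter, and 0 to 1. Of the reactive genes, 0 higher became 1 with no filter and 0 to 1; 2 lower became 1 with age as a factor, no filter or the block without age, 5 without WT replicates 3 and 4, 0 with the block and age, and 0 to 3 (0 without Neat1-/- replicate 5, 3 without WT replicate 4). For age, 6 markers lower became 3 without WT replicates 3 and 4, 0 with the block, and 3 to 9 (3 without WT replicate 2 or 4, 9 without WT replicate 5); 0 higher became 1 without WT replicates 3 and 4, with limma or with no filter, 3 with the block, and 0 to 1. The median slope became 0.023 with the block.

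The direction held in every alternative for 14 markers. It turned for the 18 others, none with a nominal p under 0.05 with all mice. Without WT replicates 3 and 4 the log2 fold change was -0.038 for Acsbg1, -0.016 for Aldoc, -0.031 for Aqp4, -0.078 for Cldn10, -0.037 for Gja1, -0.036 for Gjb6, -0.036 for Htra1, 0.058 for Kcnj10, -0.034 for Ntsr2, -0.026 for S1pr1 and -0.015 for Slc39a12. With the stricter filter it was -0.0034 for Acsbg1, -0.0021 for Aqp4, -0.0031 for Cldn10 and -0.0044 for S1pr1, and with library size alone -0.0030 for Acsbg1, -0.0018 for Aqp4, -0.0029 for Cldn10 and -0.0040 for S1pr1. With age as a factor it was -0.00063 for Acsl6, -0.023 for Aqp4, 0.0048 for Slc1a3 and -0.016 for Slc7a10. Cldn10 was at -0.0092 with limma and -0.00099 with no age term, and Slc1a3 at 0.0031 with no filter and at 0.020 and 0.014 with the block with and without age. With a library left out the ranges were -0.016 to 0.030 for Acsbg1, -0.0073 to 0.029 for Acsl6, -0.029 to 0.075 for Aqp4, -0.073 to 0.012 for Atp1b2, -0.033 to 0.078 for Cldn10, -0.011 to 0.072 for Htra1, -0.069 to 0.023 for Kcnj10, -0.011 to 0.058 for Ntsr2, -0.0084 to 0.064 for Ppp1r3c, -0.019 to 0.024 for S1pr1, -0.034 to 0.035 for Slc1a3, -0.0032 to 0.050 for Slc39a12, -0.056 to 0.0075 for Slc4a4, -0.0087 to 0.055 for Slc7a10 and -0.025 to 0.12 for Sox9. The slope of Gfap was 0.070 without WT replicates 3 and 4, 0.092 with the block, and -0.074 to 0.086 with a library left out. The causes were not tested. The markers with the lowest counts were Agt, Sox9 and Gli3, with as few as 142, 390 and 545 counts in a library.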
